A study of Drosophila melanogaster with 6 samples.

Results

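The subunits of the mitochondrial respiratory chain that are encoded in the nucleus were followed through acute exercise in Drosophila larvae. They were chosen by symbol and by a count minimum, with earlier results of these data known. The symbols were those in FlyBase that start with ND-, UQCR-, COX or ATPsyn, together with SdhA, SdhB, SdhC and SdhD. The minimum was 10 counts summed over the 6 libraries. Of 17477 genes in the count table, 84 had such a symbol and 67 reached the minimum. They comprise 34 genes of complex I, 4 of complex II, 6 of complex III, 11 of complex IV and 12 of complex V.

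The libraries were made from polyA-selected RNA of larval body wall preparations, which hold muscle together with the cuticle, at the third larval instar. The genes with the most counts were of both kinds, such as the muscle genes Act57B (5599852 counts) and Mhc (5027720) and the cuticle protein genes Lcp4 (3811743) and Lcp3 (2137770). Control larvae were w1118. Exercised larvae were OK6-Gal4bc > CsChrimbc, in which a Gal4 line active in motor neurons drives CsChrimson, a cation channel opened by red light, so that light makes the body wall muscles contract. The transgenes had been crossed into that w1118 stock over several generations, both groups were fed all-trans retinal overnight, and both received the light program for 2 h. OK6-Gal4 is also active in some neurons that make the peptide CCAP. The groups therefore differ in genotype and in contraction at once, and the contributions of transgenes and of exercise cannot be told apart. There were 3 libraries per group, with 20485254 to 23953341 counts in control and 19625425 to 22063283 counts in exercised larvae, and the subunits held 1.86 to 2.02% of the counts of a library.

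The respiratory chain burns the electrons of NADH and succinate in the inner mitochondrial membrane. Complex I takes electrons from NADH, complex II from succinate, and both pass them to ubiquinone. Complex III hands them to cytochrome c, and complex IV to oxygen, while complexes I, III and IV pump protons. Complex V, the ATP synthase, lets the protons flow back and makes ATP. Insect muscle that contracts for long is rich in these complexes, and a few of their subunits are made from the mitochondrial genome, with all others imported after translation in the cytosol.

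After 2 h of the light program, the transcripts of the chain in exercised larvae stood close to their level in control larvae. Of the 60 subunits with enough counts for the test, 0 were higher and 0 were lower in exercised larvae (edgeR quasi-likelihood test, Benjamini-Hochberg adjusted p under 0.05 over 9127 genes). Over all genes tested, 10.3% were higher (936 genes) and 8.52% were lower (778 genes). At an unadjusted p under 0.05, 5 of the 60 subunits were reached, which is 8.33%, against 33.3% of all genes. DESeq2 called 1 subunit, SdhC, as higher, limma-voom called 0, and the edgeR test called SdhC and ND-B14.7 as higher once control replicate 3 was left out. The count of lower subunits was 0 under each of these alternatives.

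The fold changes were small in both directions. Log2 fold changes of exercised over control larvae ran from -0.29 (ND-MWFE) to 0.27 (SdhC), with a median of 0.038 beside -0.015 over all genes. Of the 60 subunits, 45 had a value above 0 and 15 below 0, but with upper-quartile scaling, which moved the median of all genes to -0.070 and the calls of all genes to 773 higher and 1003 lower, only 26 were above 0. The median size of the change, whatever its sign, was 0.060 for the subunits and 0.23 for all genes, and 55 of the 60 were under 0.2. The CPM values (counts scaled to a TMM-scaled library of standard size) of the 3 exercised libraries all lay above those of the 3 control libraries for 9 subunits, which is 15% beside 19.8% of all genes. They all lay below for 3 subunits, which is 5% beside 19.4%.

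**Figure D1:**
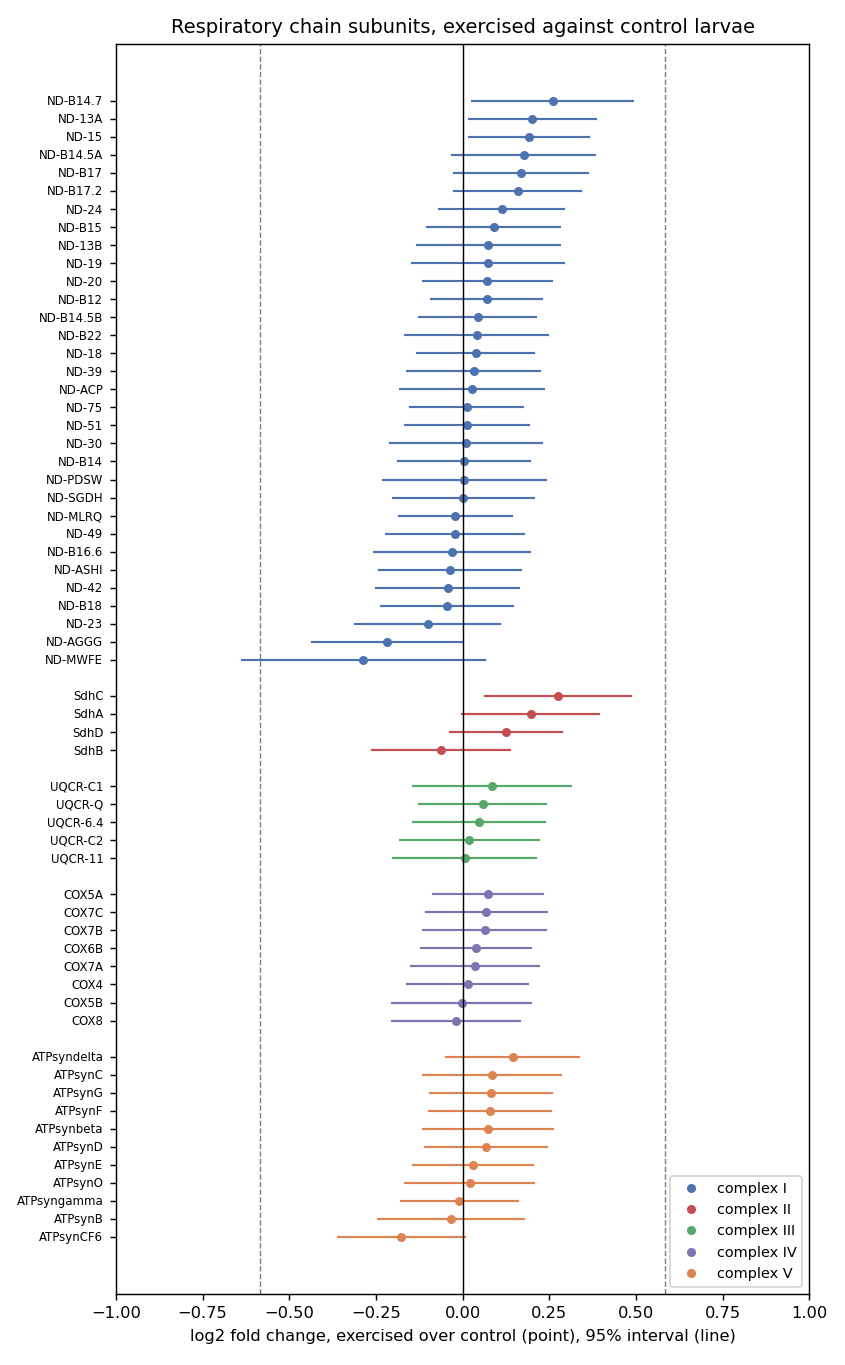
Log2 fold change of exercised over control larvae (horizontal axis, point) with its 95% interval (line) for the 60 subunits tested, grouped by complex I to V and ordered within each. Dashed lines mark a 1.5-fold change in either direction; 59 of the 60 intervals stay between them, and the exception is ND-MWFE.

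The precision was high enough to bound these changes. The median standard error of a subunit's log2 fold change was 0.082, against 0.14 over all genes, since most subunits are abundant. The 95% intervals of 59 of the 60 subunits lay within a 1.5-fold change in either direction, and those of 48 within a 1.25-fold change. Over all genes at a mean of at least 100 CPM, where counting error is small, 70.4% and 35.9% of intervals did so. Among the 43 subunits at that level 0 were called (2 at an unadjusted p under 0.05), while 181 of the 1157 genes at that level were higher (15.6%) and 87 were lower (7.52%). The design allows no smaller p than 0.1 in an exact permutation test of 3 against 3 libraries, so only the fit across all genes was used.

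**Figure D2:**
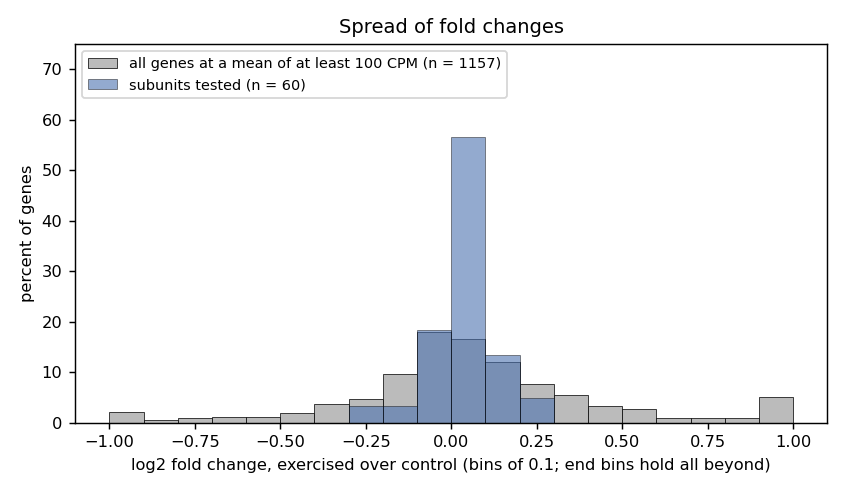
Percent of genes (vertical axis) by log2 fold change of exercised over control larvae (horizontal axis) for the 60 subunits tested and for all 1157 genes at a mean of at least 100 CPM. The subunits lie between -0.29 and 0.27, while the other genes reach both end bins.

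Complex I, the largest complex, had 32 subunits tested, none of which passed. Their median log2 fold change was 0.029, with 23 above 0 and 9 below. The 7 nuclear subunits of its catalytic core carry the flavin, the iron-sulfur clusters and the ubiquinone site. They are ND-75, ND-51, ND-24, ND-49, ND-30, ND-20 and ND-23, and they stayed between -0.10 (ND-23) and 0.11 (ND-24), with a median of 0.012. ND-75, the largest iron-sulfur subunit, is an example of the tightness of these values. Its level was 445, 436 and 478.5 CPM in control replicates 1 to 3 against 461, 453 and 457 CPM in the exercised ones, so that the exercised libraries lay inside the control range. ND-51, which binds NADH, was at 225 ± 14.3 CPM in control and 227 ± 5.83 CPM in exercised larvae (mean ± SD, n = 3), a log2 fold change of 0.012 with a 95% interval of -0.17 to 0.19.

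The ends of the complex I range were held by accessory subunits, which surround the core. ND-B14.7, the counterpart of mammalian NDUFA11 on chromosome arm 2R, had the largest value. It measured 107, 103 and 129 CPM in control replicates 1 to 3 against 136, 133 and 137 CPM in the exercised ones. The exercised libraries lay close together and above all control libraries, of which replicate 3 came nearest. The log2 fold change was 0.26 (standard error 0.10, 95% interval 0.028 to 0.49, adjusted p = 0.113 from edgeR). Without control replicate 3 it was 0.38 with an adjusted p of 0.0235, and over the other libraries left out in turn the adjusted p was 0.145 to 0.288.

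The other accessory subunits whose exercised libraries all lay above the control libraries were ND-13A, ND-15, ND-B17, ND-B17.2 and ND-B12, none of which passed the test. ND-13A, the counterpart of NDUFS6, measured 57.1, 57.8 and 61.9 CPM in the control libraries against 70.9, 63.1 and 69.2 CPM in the exercised ones, which gives a log2 fold change of 0.20 at an adjusted p of 0.119. ND-15, the counterpart of NDUFS5, measured 78.6, 79.7 and 78.4 CPM in the control libraries against 95.3, 90.5 and 84.4 CPM in the exercised ones, which gives a log2 fold change of 0.19 at an adjusted p of 0.119. The control libraries of ND-15 had the smallest spread among the 59 subunits at a mean of at least 10 CPM, with a coefficient of variation of 0.935%. ND-B17, ND-B17.2 and ND-B12 had log2 fold changes of 0.17, 0.16 and 0.070.

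ND-AGGG and ND-MWFE had the lowest values of complex I, in exercised libraries that all lay below the control libraries. ND-AGGG, the counterpart of NDUFB2 (chromosome arm 3L, positions 24976254 to 24977118, release 6), measured 27.4, 25.4 and 26.2 CPM in the control libraries against 24.1, 20.5 and 23.4 CPM in the exercised ones. Its log2 fold change was -0.22 (adjusted p = 0.148). ND-MWFE, the counterpart of NDUFA1, was the least abundant of the 60 subunits tested, at 4.38, 4.84 and 5.25 CPM in the control libraries against 4.06, 4.14 and 3.67 CPM in the exercised ones. Its log2 fold change was -0.29 with the widest interval of the set, -0.64 to 0.064 (adjusted p = 0.234). Of its 844 exon bases, 128 are shared with Nrk on the same strand and 167 with TppII on the other strand, and the treatment of reads in shared bases was not stated.

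Complex II, succinate dehydrogenase, also belongs to the citric acid cycle and is the only complex with all subunits encoded in the nucleus. Its 4 subunits had the highest median log2 fold change of the 5 complexes, 0.16, but none passed the test, and the difference from the other complexes was not tested. SdhC, a membrane anchor that helps to form the ubiquinone site (chromosome arm 3R, positions 11208887 to 11209849), measured 118, 117 and 136 CPM in control replicates 1 to 3 against 158.5, 141 and 149 CPM in the exercised ones. All exercised libraries lay above all control libraries, with control replicate 3 nearest to them. The mean went from 124 ± 10.8 CPM to 149.7 ± 8.69 CPM (SD, n = 3), a log2 fold change of 0.27 (standard error 0.091, 95% interval 0.063 to 0.48) with an unadjusted p of 0.0174 and an adjusted p of 0.0745 from edgeR's test across all genes. This was the smallest adjusted p of the 60 subunits. It was 0.0447 with DESeq2 and 0.0386 without control replicate 3, and between 0.0686 and 0.209 under the other alternatives against a change of 0.

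**Figure D3:**
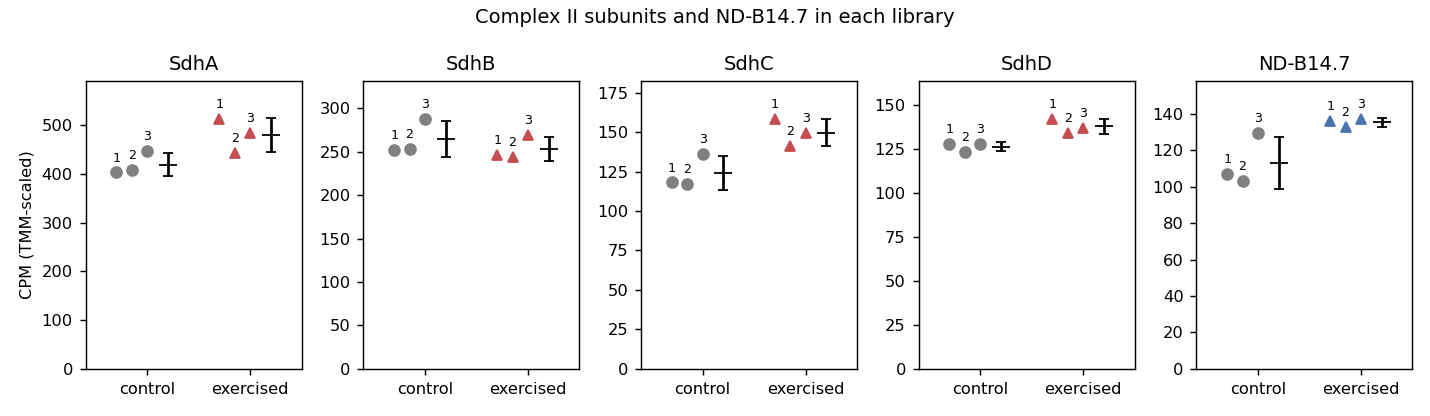
Level in CPM (vertical axis, from 0) of SdhA, SdhB, SdhC, SdhD and ND-B14.7 in each library; digits are replicate numbers, and the bars to the right of the points give the mean and SD of the 3 libraries. SdhC, SdhD and ND-B14.7 have all exercised libraries above the control libraries, while those of SdhA and SdhB overlap.

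The 3 other subunits of complex II had unlike values, on both sides of 0. SdhA, the flavoprotein that oxidises succinate, measured 403, 407 and 446 CPM in the control libraries against 513, 443 and 484 CPM in the exercised ones, so that exercised replicate 2 lay below control replicate 3. Its log2 fold change was 0.20 (95% interval -0.00059 to 0.39, adjusted p = 0.151). SdhD, the other membrane anchor (chromosome arm 3R, positions 23759483 to 23760600), measured 128, 123 and 128 CPM in the control libraries against 142, 134 and 137 CPM in the exercised ones, with no overlap and a log2 fold change of 0.13 (adjusted p = 0.253). SdhB, which holds the iron-sulfur clusters between SdhA and the anchors, measured 252, 253 and 288 CPM in the control libraries against 246, 244 and 269 CPM in the exercised ones. Its groups overlapped and its log2 fold change was -0.063 (95% interval -0.26 to 0.14, adjusted p = 0.665). Summed over its subunits, complex II took 0.0948 ± 0.0028% of the counts in control and 0.1003 ± 0.0051% in exercised larvae, with exercised replicate 2 (0.0948%) inside the control range.

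Within the symbols of the rule, complex III varied least between the members of a complex. The 5 subunits tested had log2 fold changes of 0.0058 to 0.085 and overlapping groups in each. Cyt-c1 and ox, complex III subunits under other symbols, had larger values of 0.17 and 0.11 without overlap. The highest of the 5 was UQCR-C1, a core protein of the matrix arm. It measured 631, 656 and 784 CPM in the control libraries against 758, 693 and 746 CPM in the exercised ones. Control replicate 3 was above every exercised library here, and the log2 fold change of 0.085 had an adjusted p of 0.599. UQCR-C2, its partner in the core, was at 503 ± 49.6 CPM in control and 510.1 ± 4.84 CPM in exercised larvae, a log2 fold change of 0.019. UQCR-11 was the lowest, at 155 ± 9.60 CPM in control and 156 ± 12.4 CPM in exercised larvae, a log2 fold change of 0.0058 (95% interval -0.20 to 0.21).

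Complex IV, cytochrome c oxidase, had 8 subunits tested, all of them structural subunits around the catalytic core that the mitochondrial genome encodes. Their log2 fold changes lay between -0.020 (COX8) and 0.073 (COX5A), with a median of 0.037. COX5A was the 1 subunit of this complex without overlap, at 424, 408 and 441 CPM in the control libraries against 452, 442 and 444.5 CPM in the exercised ones (adjusted p = 0.511). Control replicate 3 and exercised replicate 2 nearly touched. COX4, the largest nuclear subunit, was at 481 ± 32.6 CPM in control and 486 ± 7.12 CPM in exercised larvae, a log2 fold change of 0.014. COX8 was at 168 ± 11.9 CPM in control and 165 ± 4.52 CPM in exercised larvae (adjusted p = 0.894).

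Complex V had 11 subunits tested, with a median log2 fold change of 0.066. ATPsynbeta, the catalytic subunit, and ATPsynC, the subunit of the rotating membrane ring, were the most abundant of the 60 subunits tested. ATPsynbeta measured 2949, 2963 and 3376 CPM in the control libraries against 3460, 3115 and 3197 CPM in the exercised ones, and ATPsynC measured 2762, 2808 and 3157 CPM in the control libraries against 3339, 2882 and 3034 CPM in the exercised ones. In both, control replicate 3 and exercised replicate 1 were the high libraries of their groups, and the groups overlapped. The log2 fold changes were 0.073 (95% interval -0.11 to 0.26) and 0.085 (-0.11 to 0.28).

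The ends of complex V were ATPsyndelta, a part of the central stalk, and ATPsynCF6, the coupling factor in the side stalk that holds the catalytic head. ATPsyndelta measured 310.5, 303 and 355 CPM in the control libraries against 361.5, 357 and 351.5 CPM in the exercised ones, which gives a log2 fold change of 0.14 at an adjusted p of 0.270. Exercised replicate 3 lay just below control replicate 3. ATPsynCF6 (chromosome arm 3R, positions 23355220 to 23356064) measured 319, 311 and 355 CPM in the control libraries against 295, 282 and 293.5 CPM in the exercised ones. Each exercised library lay below each control library, and the log2 fold change was -0.18 (standard error 0.079, 95% interval -0.36 to 0.0065, adjusted p = 0.163). ATPsynO, ATPsynB, ATPsynD, ATPsynF, ATPsynG, ATPsynE and ATPsyngamma, which build the stalks and the membrane part, ranged from -0.035 (ATPsynB) to 0.081 (ATPsynG).

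The subunits deviated together from library to library. Of the 59 subunits at a mean of at least 10 CPM, 56 had their highest control value in replicate 3 (94.9%), beside 54.2% of all genes at 100 CPM or more. In exercised larvae 45 had their highest value in replicate 1 (76.3% beside 47.3%), and 43 their lowest in replicate 2. Taken as log2 differences from each gene's mean over the control libraries, the medians were -0.048, -0.060 and 0.12 in control and 0.088, 0.0079 and 0.038 in exercised replicates 1 to 3. Control replicate 3 thus stood above every exercised library in the median. This held in complexes I, III, IV and V, but in complex II exercised replicates 1 and 3, at 0.23 and 0.16, were above control replicate 3 at 0.11. The coefficient of variation within a group had a median of 7.34% in control, highest in ND-B14.7 at 12.6%, and 2.99% in exercised larvae, highest in ND-13B at 8.60%. The median SD within groups was 0.086 on the log2 scale and 0.038 once the library medians were taken out. Without control replicate 3 the median log2 fold change of the subunits was 0.11, with 56 of 60 above 0 and the 2 calls named above.

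**Figure D4:**
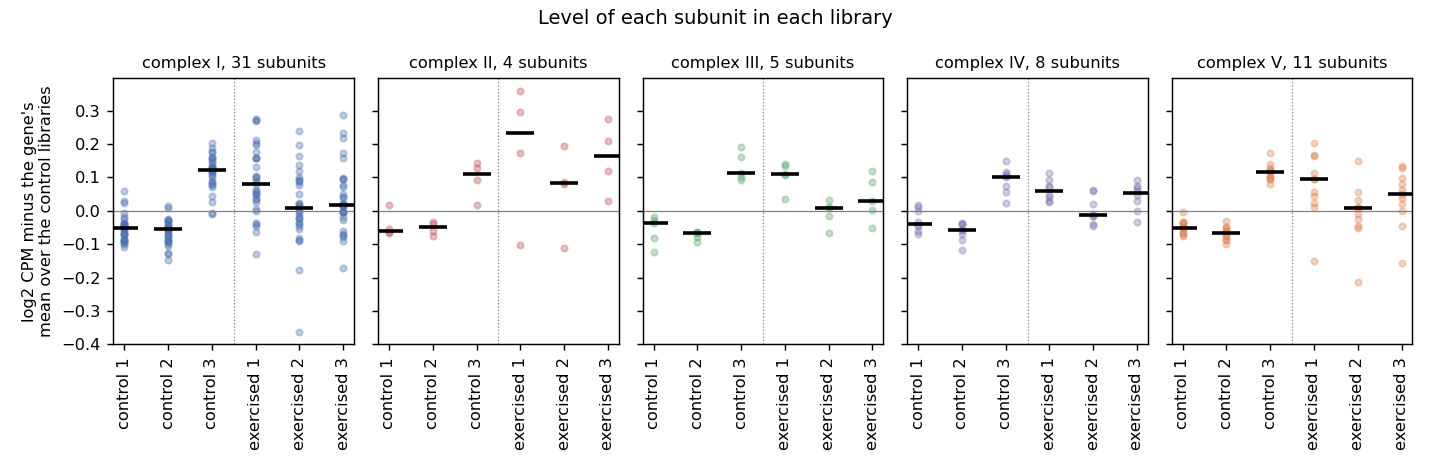
Log2 CPM of each subunit minus its mean over the control libraries (vertical axis) in each library (horizontal axis), for the 59 subunits at a mean of at least 10 CPM, with a panel per complex; points are subunits and black bars their median. In every panel control replicate 3 stands above the other control libraries, with a median over all subunits of 0.12.

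Control replicate 3 also stood apart in other transcripts. The summed level of 6 fat body markers was 551, 411 and 3610 CPM in the control libraries against 4327, 4007 and 3387 CPM in the exercised ones. That sum was carried mainly by Lsp1beta and Lsp1alpha, storage proteins of the hemolymph, and apolpp and Fbp2 followed it. The level of apolpp was 63.1, 73.4 and 462 CPM in the control libraries against 359.7 to 494.9 CPM in the exercised ones. Fbp2 measured 35.6, 8.81 and 107 CPM in the control libraries against 103 to 135 CPM in the exercised ones. Lsp2 was also highest in replicate 3 among the control libraries, but at 11.4 CPM it there stayed below the 21.4 to 34.6 CPM of exercised larvae. Fbp1 had 1, 0 and 2 counts in the control libraries, too few to rank them, against 35, 126 and 194 in the exercised ones. That is 0.0914 CPM in control replicate 3 beside 1.67 to 9.02 CPM in exercised larvae. Fbp1, NimC1 of the hemocyte markers and serp of the trachea markers were called higher, the latter pair with log2 fold changes of 2.79 and 0.57. The other hemocyte markers had log2 fold changes below 0 without a call: Ppn -0.59, eater -0.51, Hml -0.45 and Pxn -0.37. Of the other trachea markers, verm had 0.36 and trh -0.17, neither called. Muscle markers, 8 genes such as Mhc and Act57B, summed to 131120 to 146770 CPM in control, highest in replicate 3, and to 132420 to 144610 CPM in exercised larvae, with 0 called. Hemocyte markers (5 genes) summed to 737 to 1368 CPM in control and 706 to 1046 CPM in exercised larvae, trachea markers (3 genes) to 2674 to 2931 CPM and 3187 to 4349 CPM, and neuron markers (4 genes) to 40.1 to 46.4 CPM and 31.0 to 43.1 CPM. Of 12 testis markers, 2 were at 0, and the sum was 45.6 to 54.3 CPM in all libraries, carried mainly by bol at 42.1 to 50.6 CPM. Another, betaTub85D, had 79 counts (3.61 CPM) in control replicate 3 and 0 or 1 in each other library. Of 5 midgut markers, 3 were at 0, and the sum was at most 0.646 CPM. No markers of the epidermis were taken. The part of the epidermis and of these tissues in the level of the subunits was not tested. In such bulk samples fewer cells of a type and less RNA per cell cannot be told apart.

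Sxl and msl-2, genes that act in sex determination and dosage compensation, differed between the groups as well. The larvae of both groups were of mixed sex, and a difference in the share of the sexes was not tested. Sxl, the switch gene of female development, was higher and msl-2, which acts in male dosage compensation, was lower in exercised larvae, with log2 fold changes of 0.70 and -1.69, and their part in the level of X-linked genes was not tested. The 10 subunits tested on the X chromosome had a median log2 fold change of 0.038, like the 50 on other chromosomes, also 0.038. None of the 10 was called by edgeR or reached an unadjusted p under 0.05, and their groups overlapped in every case. Over all 1464 genes tested on X, 173 were higher, 80 were lower and 470 had an unadjusted p under 0.05, with a median log2 fold change of 0.027 beside -0.023 on the other chromosomes.

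Levels differed far more between subunits than between groups. To compare genes, CPM were divided by the exon length in kilobases. The median of this level per length over the members tested was 117 in complex I, 157 in complex II, 171 in complex III, 427.5 in complex IV and 502 in complex V. Complexes IV and V thus stood above complexes I to III in their medians, although single subunits crossed that order. Within complex II the highest (SdhB, 212) and the lowest (SdhD, 148) were 1.44-fold apart, and within complex IV the highest (COX7B, 583) and the lowest (COX7C, 298) were 1.95-fold apart. In complex III, UQCR-C1 at 436 was 4.52-fold above UQCR-11 at 96.5.

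Complex I and complex V spanned more. ND-MLRQ, whose mammalian counterpart is now counted with complex IV, was the most abundant subunit carrying an ND- symbol, at 438 CPM per kilobase, close to the median of complex IV. The 7 core subunits of complex I lay between 97.5 and 173 CPM per kilobase. At the low end were ND-AGGG at 32.9 and ND-MWFE at 5.20 CPM per kilobase, and without this pair the subunits of complex I lay between 60.5 and 438. In complex V, ATPsynC stood at 1604 and ATPsynbeta at 1331 CPM per kilobase, beside 648 for ATPsynF, the next below among the ATPsyn symbols. The lowest was ATPsyndelta at 89.0, a value set by an annotated exon length of 3817 bases, of which 1358 are shared with CG2962 on the other strand. The order of levels was almost the same with the longest transcript as the length (Spearman's rho = 0.992 across genes, which are not independent replicates).

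**Figure D5:**
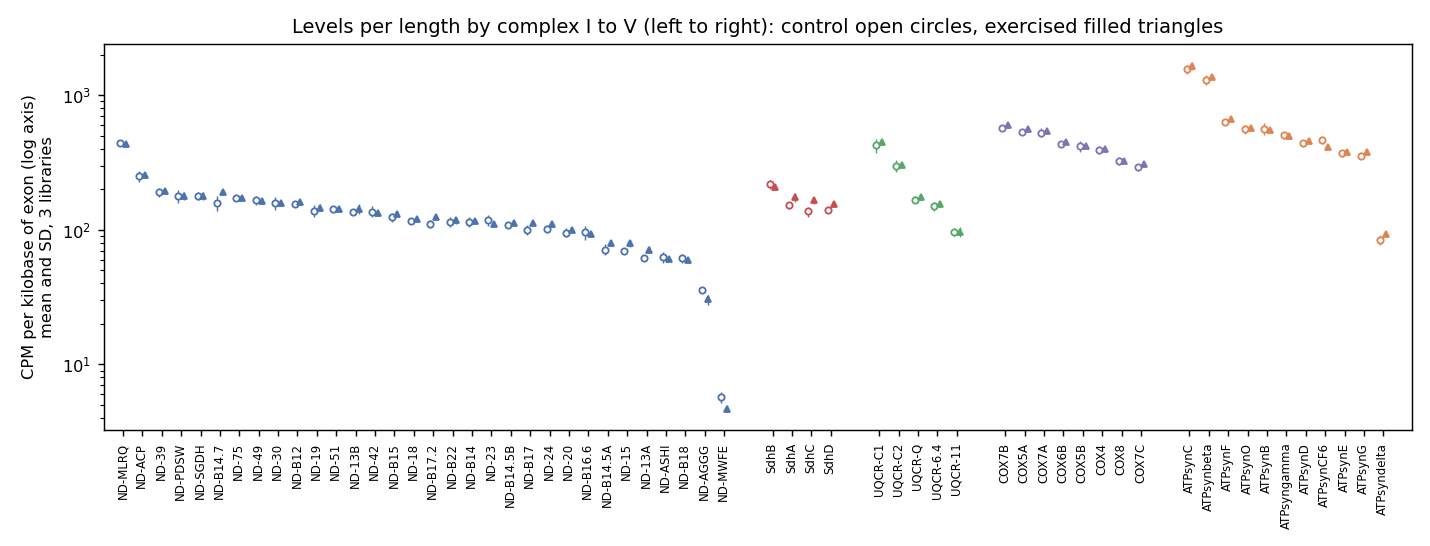
Level per length in CPM per kilobase of exon (vertical log axis, mean and SD of 3 libraries) of the 60 subunits tested, ordered by level within complexes I to V from left to right; open circles are control and filled triangles exercised larvae. Circles and triangles lie almost on each other, while subunits range from 5.20 (ND-MWFE) to 1604 (ATPsynC).

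Several subunits have a paralog whose symbol ends in L, and those that the ND-, UQCR-, COX and ATPsyn symbols cover had few or no counts in the body wall. Of these 21 genes none had more than 50 counts over the 6 libraries, and together they had 164 counts. ATPsynepsilonL had 50 counts, ND-51L1 20, COX7AL2 18, COX4L 17, UQCR-6.4L 16 and COX7AL 13, which made these 6 members, all below the limit of the test. Their partners ND-51, COX4, COX7A and UQCR-6.4 had 29328, 62719, 48180 and 11078 counts. The partner of ATPsynepsilonL goes by another symbol, sun, and is described among those genes. The other 15 had 0 to 8 counts: COX7CL and ATPsynbetaL had 8 each, COX6AL 5, ND-49L 4, ND-20L 3, and ND-51L2 and UQCR-11L 1 each, while ND-24L, ND-B14.5AL, UQCR-14L, COX5BL, COX6AL2, COX6CL, ATPsynCF6L and ATPsynGL were at 0. For a gene at 0 the table allows up to 3 counts. All 647 exon bases of COX5BL are shared with Trmt6 on the other strand, and the treatment of reads in such bases was not stated.

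Of the 63 symbols of the rule that are not such paralogs, 60 were tested and 3 were not. ND-B8, the counterpart of NDUFA2, had 7, 6 and 9 counts in control and 4, 1 and 1 in exercised larvae, too few to test, although the exercised counts were the lower ones. ND-MNLL, the counterpart of NDUFB1, and UQCR-14, a small subunit of complex III, were at 0 in all libraries and are no members. All 720 exon bases of ND-MNLL are shared with CG45089 on the same strand, which was also at 0, and all 523 exon bases of UQCR-14 lie within CG32576 on the other strand, which had 1308 counts. The table therefore gives no level for either subunit. Among the subunits tested, 26 share some exon bases with another gene, and in UQCR-6.4, ATPsyndelta, ND-MWFE and ND-B22 the share with all such genes together exceeded 20%.

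Subunits that go by other symbols did not pass the test, with 1 exception. Of 8 such genes tested, 7 did not pass: blw, the alpha subunit of ATP synthase (3160 ± 315 CPM in control and 3109 ± 101 CPM in exercised larvae), sun, its epsilon subunit (219 ± 0.682 CPM in control, 239.5 ± 0.575 CPM after exercise), levy and cype of complex IV, and RFeSP, Cyt-c1 and ox of complex III. The exercised libraries of Cyt-c1, ox and sun lay above all control libraries, by 0.17, 0.11 and 0.13 on the log2 scale at adjusted p of 0.191, 0.325 and 0.209. The exception was SdhBL, a paralog of SdhB on the X chromosome (positions 18894446 to 18896581), which rose from 1.43, 1.34 and 1.10 CPM in control to 3.01, 4.29 and 5.35 CPM in exercised replicates 1 to 3. Its log2 fold change was 1.70 (standard error 0.27, adjusted p = 0.00503), and it stayed under 0.05 in every alternative. SdhBL was far below SdhB in both groups, with 349 counts over the 6 libraries beside 33629 of SdhB.

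Genes that build the complexes or feed them were read against the same shares over all genes, 10.3% higher and 8.52% lower. Of 11 assembly factors tested, 1 was lower and 0 were higher, a lower share close to that of all genes. The lower one was sicily, known in flies as a factor that accompanies a complex I subunit on its way to the mitochondrion, with 13.7, 12.2 and 16.7 CPM in the control libraries against 7.41, 6.98 and 7.02 CPM in the exercised ones. It fell by 0.99 on the log2 scale, with a standard error of 0.14 and an adjusted p of 0.00296. ND-42, the subunit it is known to accompany, was at 221 ± 21.4 CPM in control and 214.5 ± 7.33 CPM in exercised larvae, which gives a log2 fold change of -0.044 at an adjusted p of 0.781.

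Of 12 genes tested for ubiquinone synthesis, exchange carriers and side entries into the chain, 1 was lower and 0 were higher, again close to the shares over all genes. It was Gpo1, the mitochondrial glycerol 3-phosphate dehydrogenase that passes electrons to ubiquinone, at 287, 297 and 345 CPM in the control libraries against 252, 231 and 223 CPM in the exercised ones. It fell by 0.40 on the log2 scale, with a standard error of 0.096 and an adjusted p of 0.0265, and the call was lost without control replicate 2 (adjusted p = 0.0634), control replicate 3 (0.0614), exercised replicate 2 (0.0600) or exercised replicate 3 (0.118). The carrier sesB, which exchanges ADP for ATP, and porin, the pore of the outer membrane, gave 0.028 and 0.072 on the log2 scale, at adjusted p of 0.869 and 0.590. Of 14 genes of pyruvate dehydrogenase and the citric acid cycle, 0 were called by edgeR (2 at an unadjusted p under 0.05), DESeq2 or limma-voom, with a median log2 fold change of 0.10 and 13 of 14 above 0. Over all genes, 4372 of 9127 were above 0 (median -0.015), and 648 of 1157 at 100 CPM or more (median 0.035). Without control replicate 3, edgeR called 2 of the 14 genes as higher, Mdh2, the mitochondrial malate dehydrogenase, and CG5214.

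The mitochondrial genome encodes the remaining subunits. Of its 37 genes, 12 were tested, of which 1 was lower and 0 were higher, beside 8.52% lower and 10.3% higher over all genes. Mitochondrial messengers made up 0.252 ± 0.025% of the counts in control and 0.245 ± 0.023% in exercised larvae (SD, n = 3). These counts were very uneven between genes. Over the 6 libraries mt:Cyt-b had 88680 and mt:CoI 69794, beside 128 for mt:ND2, 121 for mt:CoII, 3 for mt:ND6 and 0 for mt:ATPase8. The sum therefore rests on a part of the mitochondrial messengers and gives no level for the others. mt:CoI, the catalytic subunit of complex IV, was at 536 ± 29.9 CPM in control and 540.1 ± 38.3 CPM in exercised larvae. The gene that passed was mt:ND4L, a small membrane subunit of complex I, with 24, 35 and 30 counts in control and 0 in each exercised library. Pooled over the group, the counts assigned to it were about 27-fold lower or more in exercised larvae (adjusted p = 0.00304 from edgeR). This takes 3 counts as the floor for a count of 0 and the control counts as given. Its control level was low, at 0.98 to 1.62 CPM, and it was not tested when every library had to reach 1 CPM. Its neighbour mt:ND4, with which it shares 1 base on the same strand, had 25944 counts and a log2 fold change of -0.041 (adjusted p = 0.822). The treatment of reads in shared bases was not stated, and its part in the 0 counts of mt:ND4L was not tested.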

How the data were processed

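The deposited counts are raw reads per gene. The authors used FastQC for read quality, STAR for alignment (genome release 6) and featureCounts for counting; of these, versions, annotation and strand setting were not stated. The 3 libraries per group are described as independent biological replicates, and p-values measure the spread between them. Differential expression in the study itself used DESeq2 and was not used here.

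Symbols, positions and exon lengths came from the Ensembl annotation of release 6, which named 17200 of 17477 identifiers; the other 277, with 4.09% of the counts, entered the fit but no list. The test was that of edgeR 4.0.16 under R 4.3.3 (filterByExpr, TMM, glmQLFit with robust=TRUE, glmQLFTest, condition alone). All p-values were adjusted over all 9127 genes tested. The 95% intervals come from the same test and cover the spread between libraries. CPM values are per TMM-scaled library. No gene-set test was made. The steps were tested on simulated counts, and no pair of libraries was a duplicate.

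The members and all gene lists were chosen with earlier results of these data known. Named were SdhA to SdhD, for each complex the subunits with the highest level per length and with the largest and smallest fold change, all untested symbols, L paralogs with their partners, the subunit with the largest spread, and called members of the other lists; the remaining names were chosen after their values were seen. Alternatives were DESeq2 1.42.0, limma-voom (limma 3.58.1), RLE and upper-quartile factors, leaving out the 20 most abundant genes, no low-count filter, a CPM of at least 1 in every library, the replicate number as a block, glmTreat beyond 1.5-fold and each library left out in turn. A search of promoters for motifs had been planned and was not run, since no sequences were used here.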

Additional observations from a re-analysis of the deposited data

How the results depend on the processing

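The count of subunits called higher was 0 with edgeR and 1 with DESeq2 (SdhC), and 0 to 2 over the libraries left out in turn, with 2 (ND-B14.7 and SdhC) only without control replicate 3. The count called lower was 0 under all 15 alternatives. The median log2 fold change of complex I, 0.029, ranged from -0.0045 to 0.11 over the libraries left out, the highest without control replicate 3 (0.107). Over all complexes the median was 0.038, and 0.011 to 0.11 over the libraries left out; with upper-quartile factors it was -0.017, and the medians of complexes I, III and IV also went below 0. The distance of the members' median from that of all genes was 0.053 and stayed between 0.017 and 0.11 under all alternatives. The summed share of the subunits had a log2 ratio of 0.0052, -0.028 without the 20 most abundant genes and 0.052 per TMM-scaled library. Of the genes called in other lists, Gpo1 lost its call with the replicate block (adjusted p = 0.0836) and, like sicily (adjusted p = 0.0528), against a change beyond 1.5-fold. DESeq2 called Gpo2 as higher, and so did edgeR without exercised replicate 2. Gpo2 had few counts, 0, 5 and 1 in control and 38, 5 and 18 in exercised larvae. Upper-quartile factors called Ttc19 as lower. With a CPM of at least 1 required in every library, mt:ND4L was not tested.

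With the replicate block, 0 subunits were called higher and 0 lower, and the median over all complexes was 0.038, while the calls over all genes went from 936 higher and 778 lower to 599 and 465. Same-numbered libraries did not deviate together (correlations of -0.22, 0.0029 and -0.24 over all genes tested). The highest correlation was between control replicate 1 and exercised replicate 3 (0.29). The deviations of 3 libraries sum to 0 in each group, so these values cannot show whether the numbers pair the libraries. Depth limited the untested members, of which none had more than 50 counts.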
